A study of Mus musculus with 6 samples.

Results

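Immunity-related GTPases (IRGs) are interferon-induced GTP-binding proteins that mouse cells use against vacuolar pathogens such as Toxoplasma. Their genes are nearly silent in resting cells and are switched on by interferon gamma, and less strongly by type I interferons. One class, the IRGM proteins, sits on the cell's own membranes and holds the others inactive there, while the effector class is loaded onto the membrane of the vacuole and breaks it open. In macrophages the family is widely read as a sign of interferon exposure.

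The 8 genes described here were chosen by name from the deposited table, which held 21878 genes. They are the IRGM genes Igtp, Irgm1 and Irgm2, and the genes Iigp1, Gm4951, Ifi47, Tgtp1 and Tgtp2. All 8 were in the table and all 8 passed the filter on low counts, which 12136 genes passed in all. The libraries came from tumour-associated macrophages, the macrophages found inside a tumour, sorted by flow cytometry from mice 14 days after injection of MC38, a mouse colon carcinoma line. The KO group held 3 libraries from Trmt61a f/f LysmCre mice, in which Cre made from the lysozyme M locus of myeloid cells deletes floxed Trmt61a. The WT group held 3 libraries from Trmt61a f/f mice, which carry the same floxed alleles and are not labelled with Cre. TRMT61A is the catalytic part of the methyltransferase that writes m1A into tRNA. The study's title concerns the translation of interferon-associated genes, which RNA counts do not measure. The labels give neither age, sex and sorting gate nor how many mice stand behind a library, so the spread that the p-values rest on may be technical.

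Totals ran from 18839026 to 20313597 counts in KO libraries and from 19622763 to 20247004 in WT libraries. Levels are given as CPM, which puts the counts of each library on a common scale with TMM factors. Trmt61a was at 2.13, 1.73 and 2.46 CPM in KO libraries 1 to 3, against 8.01, 6.95 and 7.38 CPM in WT libraries 1 to 3, so each library followed its label (log2 fold change -1.81, SE 0.197, edgeR adjusted p = 0.0426, not under 0.05 in 9 of 18 alternative analyses). The macrophage label was met by Adgre1, at 444.7 to 526 CPM in KO libraries and 497 to 603 CPM in WT libraries. Of 10 macrophage markers 7 had a negative log2 fold change (median -0.10), against 50.2% of all tested genes. The groups did not overlap for 3 that were lower in KO (C1qa, C1qb and C1qc), against 6.30% of all tested genes. At an unadjusted p under 0.05, 2 were lower, against 3.06%, and 0 were called by edgeR, against 0.0165%. Like the GTPases, C1qa, C1qb and C1qc had KO library 1 lowest and WT library 1 highest, with C1qc at log2 -0.25 (SE 0.0815). The sum of the 10 was 11170 to 11820 CPM in KO libraries and 11630 to 13080 CPM in WT libraries. The list of 12 T and NK cell markers summed to 29.3 to 84.0 CPM in KO libraries and 35.2 to 50.8 CPM in WT libraries, and none of the 12 was at 0 in all libraries. In bulk RNA, fewer cells that express a gene and less RNA per cell cannot be told apart.

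The members lie in 3 clusters on GRCm38, the assembly that mm10 names. Irgm1, Tgtp1, Tgtp2 and Ifi47 lie within 231.7 kb of chromosome 11, from 48865245 to 49096987. Igtp (58199556 to 58207592, plus strand) and Irgm2 (58214977 to 58222783, plus strand) lie further along the same chromosome. The position of Iigp1 and Gm4951 is given with their values. The sequence before the annotated start was taken for 6 members from RefSeq on GRCm38.p6, and Iigp1 and Gm4951 are named only. It was searched on both strands for the core of the interferon-stimulated response element (ISRE), GAAANNGAA, which IRF factors bind, and for the gamma-activated site (GAS), TTCNNNGAA, an element of interferon gamma responses. In a window of 250 bases before and 50 bases after the start, the ISRE core was found in 5 of the 6 members and GAS in 4, where 8.56% and 8.30% of 32851 such windows of the mouse genome held them.

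The 100 bases before the start are shown for the 5 members with a match, 5′ to 3′ on the strand of the gene, because all their matches sit there and 4 of the 5 share 1 order. Capitals mark GAS and ISRE core matches, with GAS on the left wherever both occur.
Igtp, chr11:58199456-58199555, plus strand: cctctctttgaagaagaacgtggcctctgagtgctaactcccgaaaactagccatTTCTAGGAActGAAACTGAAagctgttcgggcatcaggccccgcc
Irgm2, chr11:58214877-58214976, plus strand: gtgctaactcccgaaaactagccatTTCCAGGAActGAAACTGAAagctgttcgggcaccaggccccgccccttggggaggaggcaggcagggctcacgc
Irgm1, chr11:48871421-48871520, minus strand: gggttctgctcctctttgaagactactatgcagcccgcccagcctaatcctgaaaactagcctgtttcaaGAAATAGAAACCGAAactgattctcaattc
Tgtp1, chr11:48992247-48992346, minus strand: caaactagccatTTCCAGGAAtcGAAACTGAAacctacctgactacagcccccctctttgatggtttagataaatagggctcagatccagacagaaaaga
Tgtp2, chr11:49064213-49064312, minus strand: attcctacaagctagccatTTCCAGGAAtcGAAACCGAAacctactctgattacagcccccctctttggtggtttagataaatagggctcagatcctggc

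In Igtp, Irgm2, Tgtp1 and Tgtp2 the GAS match was followed by the ISRE core on the same strand after 2 bases. That arrangement, read from these sequences and then searched for, was present in 8 of the 32851 windows (0.0244%), of which 4 belong to these members and 1 to the related gene Gm12185. The other 3 windows belong to Adar, LOC115488470 and Olfr382. Irgm1 had a pair of overlapping ISRE core matches, at -30 to -22 and -24 to -16 from the start, and no GAS match in the window. Ifi47 had no match of either kind within its window. The windows of Igtp and Irgm2 were 92.1% identical over their aligned bases, and those of Tgtp1 and Tgtp2 80.5%.

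**Figure D1:**
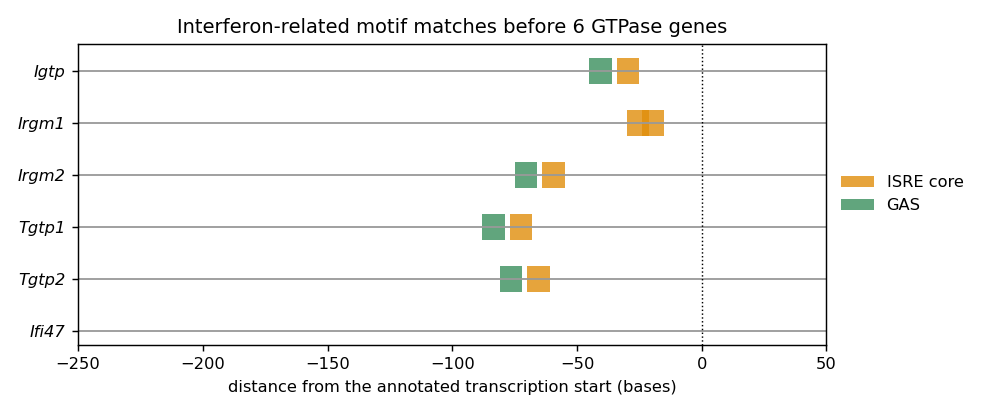
Matches to GAS (green) and to the ISRE core (orange) on either strand, by distance in bases from the annotated transcription start (dotted line), in the RefSeq windows of 6 members. In Igtp, Irgm2, Tgtp1 and Tgtp2 a GAS match is followed by an ISRE core match after 2 bases, and Ifi47 has neither.

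RNA of all 8 GTPase genes averaged lower in KO than in WT macrophages, and none of them passed the test. Together they summed to 316.3, 499 and 505.7 CPM in KO libraries 1 to 3, against 806 CPM in WT library 1, 489 CPM in WT library 2 and 577 CPM in WT library 3. The fitted log2 fold changes, KO over WT, ran from -0.74 for Tgtp1 to -0.29 for Irgm2 with a median of -0.54, where the median over all tested genes was -0.001. A negative value was found for 8 of 8 members and for 50.2% of all tested genes. At an edgeR adjusted p under 0.05, 0 of 8 members were called lower, against 0.0165% of all tested genes, and DESeq2 called 0 of 8, against 0.184%. At an unadjusted p under 0.05, 3 of 8 were lower (Gm4951, Iigp1 and Ifi47), against 3.06% of all tested genes.

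**Figure D2:**
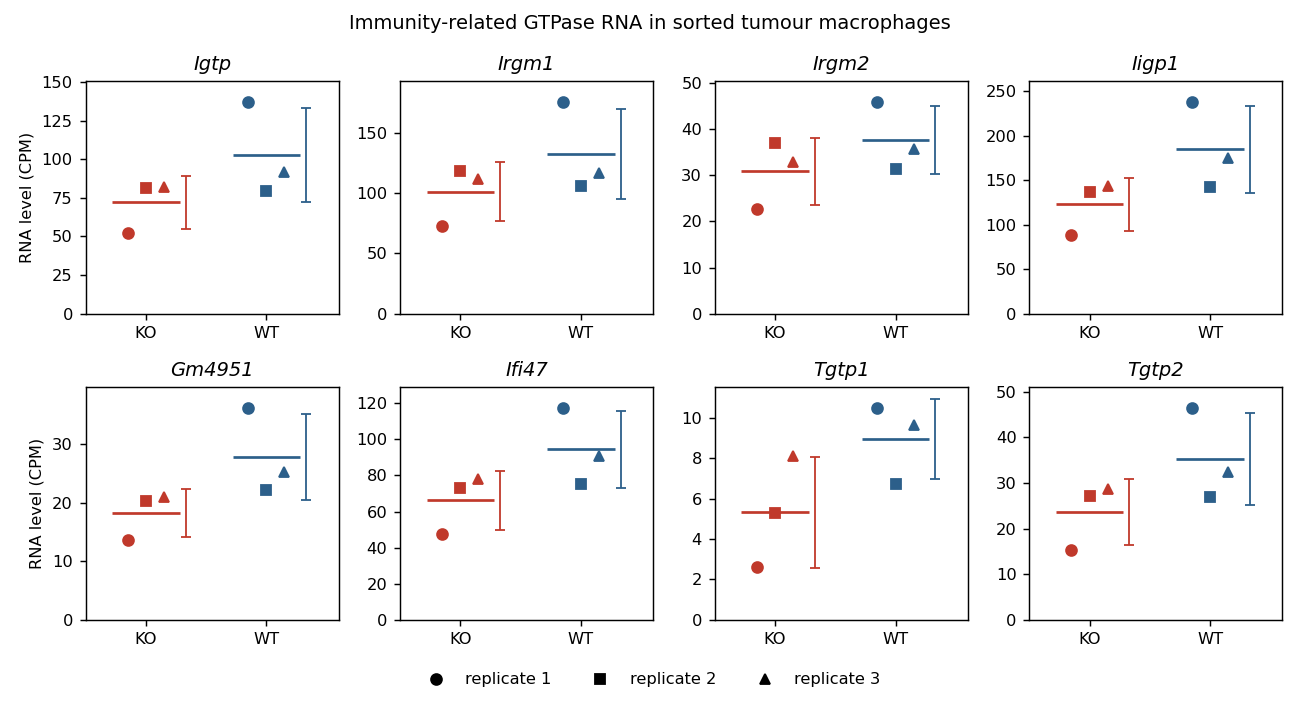
RNA level in CPM of the 8 members in each library, KO (red) left of WT (blue), with a horizontal line at the mean of 3 libraries, a bar of ± 1 SD beside it and symbols for replicates 1 to 3. In each panel WT replicate 1 is the highest library and KO replicate 1 the lowest, and apart from Gm4951 the groups overlap.

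Among the IRGM genes, Igtp encodes Irgm3, found on the endoplasmic reticulum and lipid droplets in mouse cells. It was at 52.5, 81.5 and 81.9 CPM in KO libraries 1 to 3, against 137, 79.3 and 91.7 CPM in WT libraries 1 to 3. KO libraries 2 and 3 lay above WT library 2, so the groups overlapped. The difference on the log2 scale was -0.51 (SE 0.233, 95% interval -1.05 to 0.028, edgeR adjusted p = 0.722). Irgm1 encodes the regulator on Golgi and lysosomal membranes whose loss leaves mice open to mycobacteria and Listeria. It was at 73.1, 118 and 112 CPM in KO libraries, against 175.5, 105.7 and 117 CPM in WT libraries. The middle 4 libraries were interleaved, and Irgm1 had a log2 fold change of -0.39 (SE 0.230, 95% interval -0.92 to 0.14, edgeR adjusted p = 0.755). Irgm2, a Golgi-associated regulator, was at 22.8, 37.0 and 32.8 CPM in KO libraries and 45.9, 31.4 and 35.8 CPM in WT libraries. KO library 2 was above WT libraries 2 and 3, and Irgm2 had the smallest difference of the 8, at -0.29 (SE 0.195, 95% interval -0.74 to 0.16, edgeR adjusted p = 0.785). In GENCODE M21 the span of Irgm2 overlaps Igtp on the same strand, so reads of this pair are uncertain where they overlap.

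Iigp1 and Gm4951 form a cluster of 180.6 kb on chromosome 18, from 60212004 to 60392634. Iigp1 encodes Irga6, the best-studied effector on the Toxoplasma vacuole, and had the highest count level of the family. It was at 88.9, 137 and 143 CPM in KO libraries 1 to 3, against 238, 142 and 174.5 CPM in WT libraries 1 to 3. KO library 3 lay just above WT library 2, and the fitted difference (log2) was -0.59 (SE 0.225, 95% interval -1.11 to -0.066, edgeR adjusted p = 0.712). Its neighbour Gm4951, listed by RefSeq under the synonym Ifgga2, was at 13.6, 20.3 and 20.95 CPM in KO libraries, against 36.1, 22.1 and 25.2 CPM in WT libraries. It was the only member whose 3 KO values all lay below the 3 WT values, which held for 6.30% of all tested genes. No member had all 3 KO values above the WT values, which held for 6.11% of all tested genes. The highest KO value of Gm4951, 20.95 CPM, was close to its lowest WT value, 22.1 CPM. The fitted log2 value was -0.60 (SE 0.219, 95% interval -1.11 to -0.099, edgeR adjusted p = 0.703), and by p it ranked 418 of the 12136 genes, first among the members.

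Ifi47 encodes Irgd, a further vacuole-loaded GTPase. It was at 47.6, 72.9 and 78.2 CPM in KO libraries 1 to 3, against 117, 75.2 and 90.9 CPM in WT libraries 1 to 3. The groups overlapped in KO library 3 and WT library 2, and Ifi47 had a fitted log2 value of -0.51 (SE 0.212, 95% interval -1.003 to -0.022, edgeR adjusted p = 0.713). The GENCODE M21 span of the low-level gene Olfr56 covers Ifi47 on the same strand. Tgtp2, a gene for the effector Irgb6 that binds the vacuole membrane early, was at 15.4, 27.2 and 28.6 CPM in KO libraries and 46.4, 26.9 and 32.5 CPM in WT libraries. KO libraries 2 and 3 were above WT library 2, and the log2 fold change of Tgtp2 was -0.57 (SE 0.266, edgeR adjusted p = 0.722). Tgtp1, its near-copy, was at 2.60, 5.30 and 8.08 CPM in KO libraries and 10.5, 6.70 and 9.62 CPM in WT libraries. KO library 3 was above WT library 2. Tgtp1 varied most, with the highest library 4.03 times the lowest, against 2.01 times for Irgm2, and had a log2 fold change of -0.74 (SE 0.361, edgeR adjusted p = 0.725).

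The values of Tgtp1 and Tgtp2 are uncertain one by one. Their transcripts were 99.8% identical over 2810 aligned bases, and 80.0% of the 100-base windows of the Tgtp1 transcript also occur in Tgtp2. The counting rule for reads that fit both is not stated in the labels or the table. Tgtp1 took 14.5% of the summed counts in KO library 1 (95% Wilson interval 11.1 to 18.5%), 16.3% in KO library 2 and 22.0% in KO library 3, against 18.4%, 20.0% and 22.8% in WT libraries 1 to 3. These intervals cover counting error only, and the shares overlapped between the groups. With both rows added, KO over WT came to -0.60 on the log2 scale (SE 0.275, edgeR adjusted p = 0.722). Adding the rows undoes a split of reads between them, but not a loss of reads that fit both, so the sum may also be too low. Among the other members only Igtp and Irgm2 share a 100-base window, 3.38% of those of Igtp.

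Per kilobase of transcript, taken from the longest GENCODE M21 transcript of each gene with a RefSeq match, the members fell into an upper set, a lower set and Tgtp1. Irgm1 (44.8 ± 10.8 CPM per kb in KO, 58.7 ± 16.6 in WT), Iigp1 (39.4 ± 9.52 in KO, 59.2 ± 15.6 in WT), Ifi47 (37.3 ± 9.22 in KO, 53.3 ± 12 in WT) and Igtp (35.6 ± 8.33 in KO, 50.7 ± 15 in WT; SD, n = 3 each) formed the upper set. Neighbours in that order differed by less than their SD in both groups, but that SD holds the swing between libraries that the members share. Within each library Irgm1 and Iigp1 both lay above Ifi47 and Igtp. The closest values were 51.6 CPM per kb for Irgm1 and 51.3 for Ifi47 in WT library 3. Irgm2 (8.93 ± 2.11 CPM per kb in KO, 10.9 ± 2.15 in WT), Tgtp2 (8.44 ± 2.58 in KO, 12.5 ± 3.58 in WT) and Gm4951 (6.91 ± 1.55 in KO, 10.5 ± 2.78 in WT) formed the lower set, again without separation by SD, and lay below the upper set by more than the SDs. Within each library Tgtp2 lay above Gm4951, most narrowly in KO library 1 (5.47 against 5.13 CPM per kb). Tgtp1 was lowest, at 1.89 ± 0.972 CPM per kb in KO and 3.16 ± 0.699 in WT, with the uncertainty about its reads given above. Sequence shared with Tgtp1 makes the level of Tgtp2 uncertain too. The overlapping spans given above do the same for Irgm2, Igtp and Ifi47. If ambiguous reads were not counted, these levels are too low, so the sets describe the counts and may not hold for the RNA.

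The members followed like patterns over the libraries, with 1 library of each group at the ends. KO library 1 was the lowest and WT library 1 the highest of the 6 for 8 of 8 members, an order found in 7.91% of all tested genes (KO library 1 lowest in 20%, WT library 1 highest in 21.7%). On the scale of log2 CPM centred on each gene's mean over the 6 libraries, the mean of the 8 members was -0.77, -0.061 and 0.019 in KO libraries 1 to 3 and 0.65, -0.049 and 0.21 in WT libraries 1 to 3. The root-mean-square distance of a member from that mean profile was between 0.0368 (Ifi47) and 0.155 (Irgm2), apart from Tgtp1 at 0.300. In the other 4 libraries (KO 2 and 3, WT 2 and 3), Igtp ran from 79.3 to 91.7 CPM and Irgm1 from 106 to 118 CPM, a ratio of highest to lowest of 1.16 and 1.12, and Tgtp1 had the widest ratio at 1.81.

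**Figure D3:**
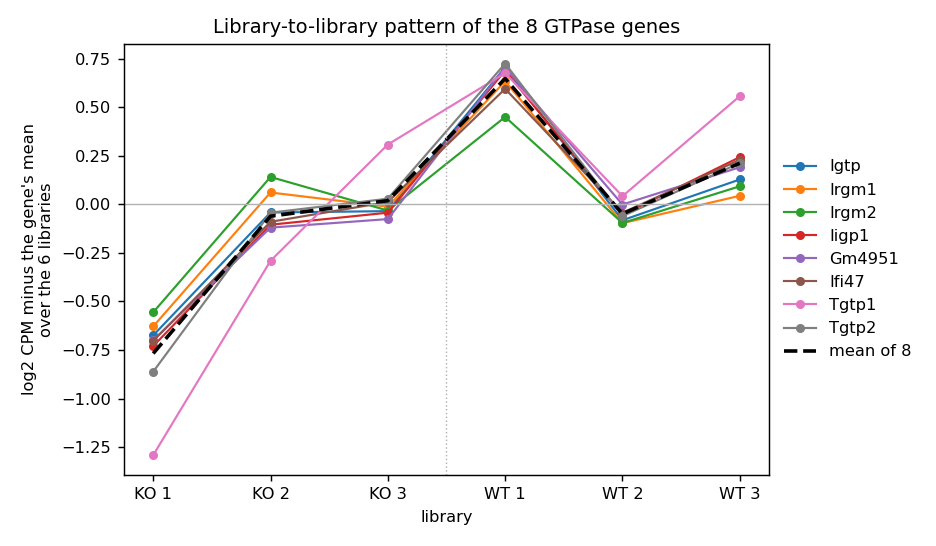
For each of the 8 members (coloured lines) and their mean (dashed), log2 CPM minus the gene's own mean over the 6 libraries, with KO libraries left of WT libraries. The mean falls to -0.77 in KO library 1 and reaches 0.65 in WT library 1, while the other 4 libraries lie between -0.061 and 0.21.

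Leaving out a single library kept all 8 values negative. Without KO library 1 the median log2 fold change of the members was -0.333, with Irgm2 at -0.11 and Gm4951 at -0.43. Without WT library 1 it was -0.325, with Irgm2 at -0.12 and Tgtp1 at -0.61. Leaving out any of the other 4 libraries gave medians from -0.69 to -0.61, with Tgtp1 at -1.18 without KO library 3 and Irgm2 at -0.44 without KO library 2. With both KO library 1 and WT library 1 left out, a choice made after their values were seen and one that narrows the gap by construction, the median was -0.12. Of the 8 members 6 were then negative, from -0.29 for Tgtp1 (SE 0.280) to -0.069 for Igtp (SE 0.103), with Gm4951 at -0.20 (SE 0.131) and Iigp1 at -0.18 (SE 0.114). Irgm1 and Irgm2 turned to 0.046 (SE 0.0937) and 0.052 (SE 0.120), and no member was called by edgeR in any of these fits.

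**Figure D4:**
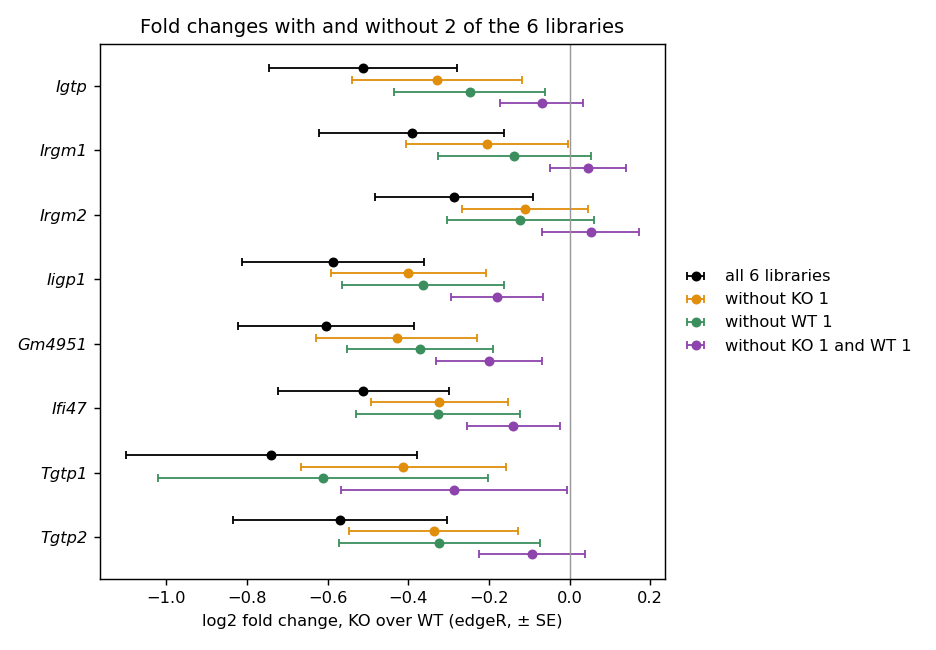
Log2 fold change, KO over WT, of each member with ± 1 SE from edgeR, using all 6 libraries (black), without KO 1 (orange), without WT 1 (green) and without both (purple). The values move towards 0 as these libraries are left out, and with both gone Irgm1 and Irgm2 lie at 0.046 and 0.052.

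The genes outside the family whose pattern over the 6 libraries lay closest to the mean of the members were looked for among 11516 tested genes of at least 1 CPM, by root-mean-square difference in centred log2 CPM. Gbp2, a guanylate-binding protein of the same defence, was closest at 0.0607. It was at 590 ± 155 CPM in KO and 889 ± 261 CPM in WT (SD, n = 3 each). Next came Il12rb1, a chain of the interleukin 12 receptor (0.0610), and Ly6a, the surface antigen Sca-1 (0.0688). Tlr9, the endosomal receptor for unmethylated DNA, followed at 0.0719, and Cd69, an early activation marker of leukocytes, at 0.0787. The median difference over the 11516 genes was 0.440. These 5 genes were picked for their likeness over the same 6 libraries, so their fold changes of -0.59 for Gbp2, -0.58 for Il12rb1, -0.44 for Ly6a, -0.46 for Tlr9 and -0.46 for Cd69 are a description, and none was called. With KO library 1 and WT library 1 left out they were -0.135 for Gbp2, -0.094 for Il12rb1, 0.035 for Ly6a, -0.057 for Tlr9 and -0.008 for Cd69. Without WT library 1 alone they ran from -0.335 for Gbp2 to -0.181 for Ly6a.

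Of 9 further IRG relatives in the table, all 9 were tested, and 7 were negative with a median of -0.34, against 50.2% of all tested genes. By edgeR 0 were called, and 1 was lower at an unadjusted p under 0.05, against 3.06% of all tested genes. Gm12250, which RefSeq lists as Irgb10, a GTPase that acts on bacterial membranes, was at 15.8, 26.2 and 27.6 CPM in KO libraries 1 to 3, against 41.7, 27.4 and 26.7 CPM in WT libraries 1 to 3. The fitted value was log2 -0.46 (SE 0.243, edgeR adjusted p = 0.730), -0.25 without KO library 1, -0.22 without WT library 1 and -0.010 without both. Gm12185, which has the same GAS and ISRE arrangement before its start, was at 1.82, 2.89 and 5.18 CPM in KO libraries and 6.53, 3.38 and 5.33 CPM in WT libraries (log2 -0.62, SE 0.381, and -0.11 with KO library 1 and WT library 1 left out). Irgq, a relative outside the interferon-induced set, was at 21.9, 20.8 and 18.1 CPM in KO libraries and 32.9, 23.6 and 22.5 CPM in WT libraries. Its groups did not overlap, as for 6.30% of all tested genes, and it stood at log2 -0.38 (SE 0.151, edgeR adjusted p = 0.712), or -0.185 without WT library 1. Gm4841 was near the floor, with 9, 23 and 32 counts in KO libraries and 57, 23 and 25 counts in WT libraries (log2 -0.70, SE 0.501, and 0.21 with those 2 libraries left out).

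The guanylate-binding proteins, the larger GTPases that cooperate with IRGs at the vacuole, were tested for 10 genes. Of these 9 were negative with a median of -0.51, against 50.2% negative among all tested genes. By edgeR 0 were called, and 2 were lower at an unadjusted p under 0.05, against 3.06% of all tested genes. Gbp5, which promotes inflammasome activation, was at 48.5, 84.0 and 74.7 CPM in KO libraries 1 to 3, against 198.5, 88.4 and 133 CPM in WT libraries 1 to 3. Its groups did not overlap, as for 6.30% of all tested genes. Gbp5 stood at log2 -1.02 (SE 0.306, edgeR adjusted p = 0.701), and at -0.49 with KO library 1 and WT library 1 left out. Gbp3 and Gbp7 were at -0.58 (SE 0.265) and -0.42 (SE 0.188). Without KO library 1 they were at -0.36 and -0.27, without WT library 1 at -0.32 and -0.24, and without both at -0.099 and -0.096. KO library 1 was the lowest library for 10 of the 10 and WT library 1 the highest for 8, against 20% and 21.7% of all tested genes.

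Of 15 receptors, kinases, transcription factors and inhibitors of the interferon pathways upstream of the family, 11 were negative with a median of -0.037. Among all tested genes 50.2% were negative. By edgeR 0 of the 15 were called, with 0 at an unadjusted p under 0.05. Of the 12136 tested genes, 371 were lower and 469 higher at that threshold. Irf1, an interferon-induced transcription factor, was at 216, 337 and 317 CPM in KO libraries 1 to 3, against 407, 297 and 334 CPM in WT libraries 1 to 3. KO library 1 was lowest and WT library 1 highest, as for the GTPases, and Irf1 stood at log2 -0.26 (SE 0.178, edgeR adjusted p = 0.791). It was at -0.082 without KO library 1, -0.12 without WT library 1 and 0.048 without both. The receptor chains Ifngr1 and Ifngr2 were at 0.16 (SE 0.0847) and -0.16 (SE 0.0834), and the kinase Jak2 at -0.18 (SE 0.107). Ifngr2 was the only gene of the 15 whose groups did not overlap, at 89.6 to 99.15 CPM in KO libraries and 101.3 to 118.2 CPM in WT libraries. All 3 KO values lay below the WT values for 6.30% of all tested genes. Without WT library 1 Ifngr2 was at -0.080 and Jak2 at -0.078, and without KO library 2 Ifngr1 was at 0.095. With all 6 libraries their edgeR adjusted p values ran from 0.725 to 0.754.

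Ifng, the ligand, is made by T and NK cells and not by most macrophages. It had 10, 38 and 17 counts in KO libraries 1 to 3 and 36, 9 and 30 counts in WT libraries 1 to 3 (log2 -0.18, SE 0.589, edgeR adjusted p = 0.954). The library lowest in GTPase sum, KO library 1, had 10 Ifng counts, and the highest, WT library 1, had 36. KO library 2 had the most Ifng counts, 38, and WT library 2 the fewest, 9. The GTPase sums of those 2 libraries were 499 and 489 CPM. Such low counts carry a wide counting error. The T and NK marker sum was 29.3, 84.0 and 43.1 CPM in KO libraries and 35.2, 35.7 and 50.8 CPM in WT libraries. That sum was lowest in KO library 1 and highest in KO library 2, with WT library 1 at 35.2 CPM. Of the 12 markers 11 were tested, 10 of them with a positive log2 fold change, and 0 were called by edgeR, with 1 higher at an unadjusted p under 0.05. KO library 2 was the highest library for each of the 11. The 10 neutrophil markers summed to 56.6, 100.5 and 67.6 CPM in KO libraries and 72.0, 54.7 and 57.2 CPM in WT libraries. Of the 6 neutrophil markers tested, 5 were positive with a median of 0.62, 3 were higher at an unadjusted p under 0.05 and 0 were called by edgeR. Across all 12136 tested genes, 6042 were positive and 469 reached that unadjusted threshold with a higher value in KO. The groups did not overlap for Ltf (log2 1.87, SE 0.487) and Mmp8 (log2 0.55, SE 0.190). Both were higher in KO, as for 6.11% of all tested genes. Ltf was near the floor, with 13, 17 and 25 counts in KO libraries 1 to 3 and 5, 7 and 3 counts in WT libraries 1 to 3. The 6 stromal markers had a larger sum, 242.9 to 304.6 CPM in KO libraries and 241.4 to 325.1 CPM in WT libraries. The 5 tumour epithelial markers summed to 111.8 to 134 CPM in KO libraries and 77.0 to 141.4 CPM in WT libraries, nearly all of it Cdh1. The part of Ifng or of other cells in the GTPase values was not tested.

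The last list held genes for the conjugation machinery that steers IRGs to vacuoles and for the adaptors found there. Of 14 tested, 6 were negative and 8 positive with a median of 0.038, and 0 were called by edgeR, with 0 at an unadjusted p under 0.05. Among all tested genes 50.2% were negative. Atg16l1 and Atg12, which form the complex that attaches LC3-like proteins to membranes, were at 0.25 (SE 0.126) and 0.19 (SE 0.0974), or 0.14 and 0.12 without WT library 1. Map1lc3a, one such LC3 protein, was at 0.21 (SE 0.124), and the ubiquitin ligase Traf6 at -0.13 (SE 0.0843). With all 6 libraries their edgeR adjusted p values ran from 0.725 to 0.783.

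**Figure D5:**
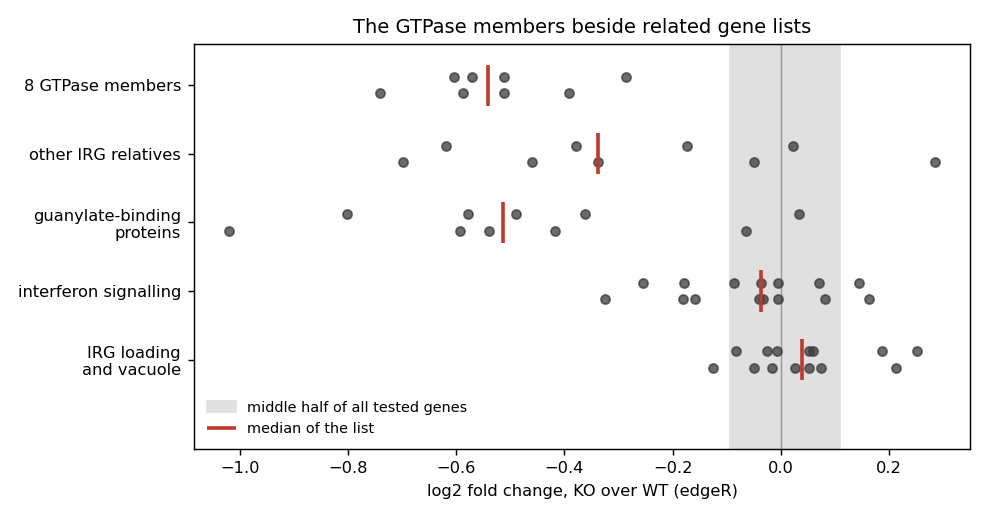
Log2 fold change, KO over WT, of each tested gene (points) in 5 lists, with the list median in red and the range from the lower to the upper quartile of all tested genes (-0.095 to 0.108) in grey. The 8 GTPase members all lie left of that range, with a median of -0.54. The medians of the other lists are -0.34 (other IRG relatives), -0.51 (guanylate-binding proteins), -0.037 (interferon signalling) and 0.038 (loading genes).

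Genes beside the clusters that are not GTPases give the values of the same regions. Within 200 kb of a member, 17 such genes were tested, 10 negative and 7 positive, with a median of -0.020, and none was called. Among all tested genes 50.2% were negative. Psme2b, between Irgm1 and Tgtp1, was at 47.4 CPM in KO and 57.5 CPM in WT (log2 -0.28, SE 0.141). Olfr56, an olfactory receptor gene near Ifi47, was at 1.19 CPM in KO and 2.21 CPM in WT (log2 -0.89, SE 0.436), and in GENCODE M21 its span covers Ifi47 on the same strand, so its reads are uncertain. Zfp692, a zinc finger gene beyond Irgm2, was at 17.6 CPM in KO and 12.1 CPM in WT (log2 0.54, SE 0.161, edgeR adjusted p = 0.701). These 3 were picked after their values were seen.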

How the data were processed

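The deposited counts for each gene were taken to be raw read counts, because the values are whole and library totals vary. The submitters' processing notes name Trimmomatic, HISAT2, Cufflinks, HTSeq and mm10, with no roles or versions. Libraries were made with a stranded poly(A) kit, per the labels' protocols. Annotation, strand setting and the treatment of multiply mapped reads are not stated there. Genes passing edgeR's expression filter (12136 genes) were scaled by TMM and compared between KO and WT with edgeR 4.0.16 in R 4.3.3. The filter asked for 15 counts in total. It also asked, in at least 3 libraries, for the CPM that equals 10 counts at the median library size. The fit was a robust quasi-likelihood fit with genotype as the only term. P-values were adjusted by Benjamini-Hochberg over all genes tested, and genes were called at an adjusted p under 0.05. On simulated data the fit missed many small changes and made more false calls than its threshold allows. SEs were derived from the F statistic. Centred values are log2 CPM with a prior count of 2. Alternatives used DESeq2 1.42.0 and limma 3.58.1. The members, lists and tests were chosen with earlier results of these data known. The rule named the 8 members, Trmt61a, Ifng and Irf1, up to 4 genes of smallest p per list, and the 5 genes of closest pattern. A further gene of the rule is not reported here. Promoter sequences came from RefSeq (GRCm38.p6).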

Additional observations from a re-analysis of the deposited data

How the results depend on the processing

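No member was called under any alternative that gave it a value, 18 for each member and 17 for Tgtp1 and Tgtp2, which have no values of their own where both are summed. These values were negative except with KO replicate 1 and WT replicate 1 both left out, an alternative added after the values were seen, where Irgm1 was at 0.046 and Irgm2 at 0.052. In that fit Irf1 (0.048), Gm4841 (0.21), Ly6a (0.035) and Ifng (0.521) were also positive; Ifng ran from -0.883 to 0.187 when 1 library was left out, and was positive without KO replicate 1 (0.16) or WT replicate 1. Other scalings moved the median of all genes by at most 0.00388 (log2). Over all genes, 2 were called, against 1 with RLE, upper-quartile or library-total scaling, with no filter, with limma-voom or with both libraries left out, 0 with at least 1 CPM in 3 libraries, 4 with quality weights, 29 with DESeq2 and 0 to 5 with 1 library left out. The adjusted p of Trmt61a was 0.0571 with the 1 CPM filter, 0.0522 with limma-voom, 0.103 with the replicate block, 0.0707 to 0.314 without KO 1, KO 3 or any WT library and 0.461 without both. Deviations of same-numbered libraries from their group means correlated at -0.0574, -0.0941 and -0.109 over the tested genes. Each library correlated least with its own number. These values show no positive pairing by replicate number, but they cannot detect a link that moves few genes. With the replicate number as a block 1 gene was called, and the members ran from -0.81 for Tgtp1 to -0.29 for Irgm2. At 50 to 205 counts, Tgtp1 has the widest counting error of the members.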

Other observations

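The shares of the members in the family sum varied less between libraries than the sum itself. Between the groups, the shares of Irgm1 and Irgm2 did not overlap and were higher in KO. Those of Iigp1 and Gm4951 did not overlap and were lower in KO. In CPM, 6.11% of all tested genes did not overlap and were higher in KO, and 6.30% were lower. No such figure was computed for shares. The shares of a library add up to the whole, so higher shares of some members force lower shares of others, and the 2 directions are not separate results. Iigp1 took 28.1, 27.5 and 28.3% of the summed CPM of the 8 genes in KO libraries 1 to 3, against 29.5, 29.0 and 30.3% in WT libraries 1 to 3. The IRGM regulators Igtp, Irgm1 and Irgm2 together took 46.9, 47.4 and 44.9% in KO libraries and 44.4, 44.2 and 42.3% in WT libraries. The KO values lay above the WT values, with 44.9% in KO library 3 closest to 44.4% in WT library 1. Irgm2 alone took 7.04 ± 0.484% in KO and 6.10 ± 0.374% in WT, and Igtp 16.4 ± 0.206% in KO and 16.4 ± 0.563% in WT (SD, n = 3 each). These shares were not tested.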
